A study of Saccharomyces cerevisiae with 2 samples.

Results

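The strains described here are 8 yeast deletion mutants that lack a gene of the Rtt101 ubiquitin ligase (RTT101, MMS1, MMS22 and RTT107) or of the cycle that puts an acetyl group on histone H3 and takes it off again (ASF1, RTT109, HST3 and HST4). They are 8 of the 5325 deletion strains that the array annotation names. The members were proposed with results of these same arrays in view, among them the low values of RTT101, MMS1 and MMS22, and the study has a single contrast. All values below therefore describe the strains, and no p-value is given for them.

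The pool that overexpressed LCD1 was compared with a pool that held a control plasmid. Both pools were haploid Saccharomyces cerevisiae deletion strains that came from one collection of 5896 heterozygous diploids able to be turned into haploids, and both plasmids were selected by URA3. The Lcd1 protein (also Ddc2) binds the checkpoint kinase Mec1 and brings it to damaged or stalled DNA, and on the plasmid its gene stood behind GAL1, a promoter that galactose switches on. Spores of both pools grew for 3 days at 30 °C on plates that let haploids through and fed them on galactose alone, at 2%. Each strain carries a pair of short DNA tags, which were amplified from genomic DNA and read on 2 two-colour tag arrays, array 1 and array 2. On both arrays the LCD1 pool carried Cy3 and the control pool Cy5, so dye and pool cannot be told apart. The sample titles call the arrays experiment1 and experiment2, but the labels do not say whether they come from separate cultures. The spread between the arrays may therefore be technical.

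Forks that stall or meet DNA damage are handled in yeast by both of these systems. Newly made histone H3 is held by the chaperone Asf1 and acetylated at a lysine in its core, known as H3K56, by the acetyltransferase Rtt109, and the mark is put on new nucleosomes behind the fork. The sirtuins Hst3 and Hst4 remove it after S phase. The cullin Rtt101, with the linker Mms1 and the adaptor Mms22, forms a ubiquitin ligase that acts in the same pathway as the acetylation and helps replisomes through damaged templates. Rtt107 is a scaffold with BRCT repeats that associates with this ligase and with Slx4 and is phosphorylated by Mec1. Cells that lack any 1 of the 8 genes are viable.

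Each ratio is given as LCD1 pool over control pool on the log2 scale, which is the likely direction and not a stated one. The deposited values do not name the dye in the numerator. The usual Cy5 over Cy3 order of such scanner ratios puts the control pool on top, and the sign was turned for that reason and for the reading of the LCD1 deletion. The strain without LCD1 itself, which as a haploid should grow only with the plasmid, had 4 deposited ratios of 0.05, 0.03, 0.44 and 0.73, all below 1. Were the order the opposite, each lower value given here would be a higher one and the reverse. A value is centred, so 0 is the median strain of that tag on that array. The median strain mean over all 5325 strains was 0.036, with quartiles at -0.20 and 0.29, and the median SD of the 2 arrays was 0.15. The array features come in 2 blocks that repeat the same genes. They are taken here for the tags of a strain and numbered first and second by their place on the array, without knowing which is the upstream tag. A strain passes the 2-fold rule when both arrays put its mean over the tags 2-fold or more to the same side of 0. With 2 arrays an exact sign-flip test of a single strain cannot give a p below 0.5.

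By the mean of the tags, the ligase core stood lowest of the 8. The strain without MMS22 stood at -2.96 on array 1 and -2.78 on array 2, a mean of -2.87 ± 0.12 (SD, n = 2 arrays). The strain without RTT101 stood at -2.43 and -1.90 (-2.16 ± 0.38), and the strain without MMS1 at -1.64 and -1.54 (-1.59 ± 0.075). On a linear scale these are 7.31-fold, 4.48-fold and 3.01-fold lower in the LCD1 pool. Counted from the lowest of 5325 strains, their means ranked 5 for MMS22, 19 for RTT101 and 53 for MMS1. These 3 of the 8 passed the 2-fold rule on the lower side, as did 1.82% of all strains. The same 3 lay 2-fold or more below 0 at each of their 4 tag values, as did 0.377% of the strains with all 4 values. On the higher side 0 of the 8 passed, beside 0.695% of all strains. Because this contrast chose the members, nothing is read from these shares.

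The cullin deletion, RTT101 (YJL047C), read -2.61 on array 1 and -2.02 on array 2 at its first tag. Its second tag read -2.25 and -1.77. Both tags were thus nearer to 0 on array 2, by 0.59 and 0.48, and the SD of 0.38 comes from this shift between the arrays. The tags lay 0.31 apart, about the median gap of all strains, which was 0.30.

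Deletion of the linker gene MMS1 (YPR164W) gave a first-tag value of -1.69 on array 1 and -1.61 on array 2, and second-tag values of -1.59 and -1.47. The 4 values lay closer together than those of any other ligase strain. The gap between its tags, 0.12, was larger than that of 22.8% of the strains.

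The adaptor deletion, MMS22 (YLR320W), owed its low mean mostly to 1 tag. Its first tag read -4.17 and -4.02, which are 18.0-fold and 16.2-fold lower, and its second tag -1.75 and -1.54, which are 3.36-fold and 2.91-fold lower. The arrays repeated within 0.21 at each tag, whereas the tags differed by 2.45, a larger gap than in 97.5% of the strains. At the second tag alone MMS22 (-1.64 ± 0.15) was close to MMS1 (-1.53) and above RTT101 (-2.01), so the order of the 3 strains depends on the tag. At that tag ASF1 (-1.75) lay below MMS22 and MMS1 as well, and RTT109 (-1.54) was level with MMS1. The order MMS22, RTT101, MMS1 held on both arrays for the mean of the tags. The difference of MMS22 minus RTT101 was -0.53 on array 1 and -0.89 on array 2, and that of RTT101 minus MMS1 -0.79 and -0.36.

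**Figure D1:**
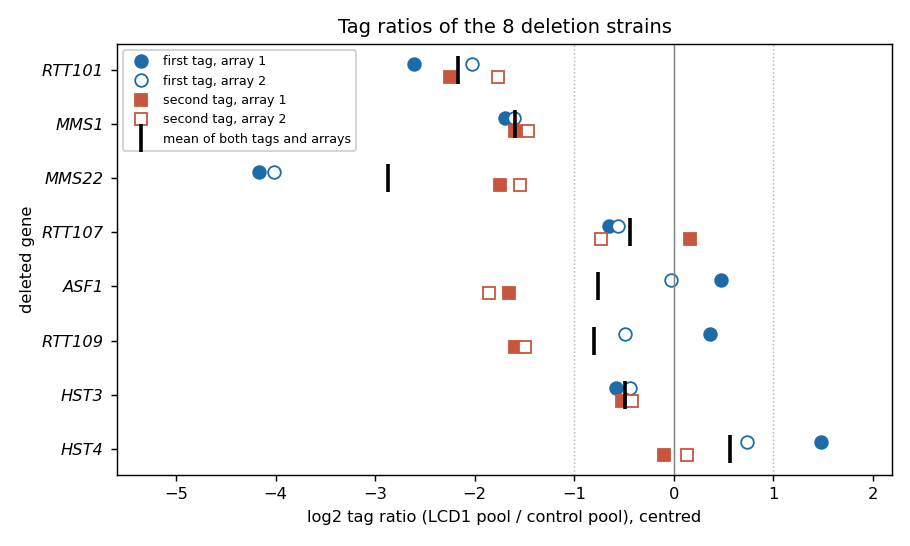
Each row is 1 deletion strain and each symbol the log2 ratio of LCD1 over control pool for 1 tag on 1 array, with the mean of both tags and arrays as a bar; dotted lines mark 2-fold. All symbols of RTT101, MMS1 and MMS22 lie left of the lower 2-fold line. ASF1 and RTT109 have their second tag left of it and their first tag between the 2-fold lines.

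The scaffold strain did not share the low values of the ligase core. Without RTT107 (YHR154W) the arrays read -0.24 and -0.65 and the mean was -0.44 ± 0.29, or 1.36-fold lower, at rank 571 from the lowest. This strain has 6 spots for each tag on the array, which show how far spots of 1 hybridisation scatter. The first tag read -0.65 on array 1 (6 spots from -0.70 to -0.60) and -0.56 on array 2 (from -0.83 to -0.32). The second tag read 0.17 on array 1 (from -0.0044 to 0.32) and -0.73 on array 2 (from -0.92 to -0.53). The spots of the second tag did not overlap between the arrays, so the shift of -0.90 is larger than the scatter of the spots. This is common on these arrays: 27.7% of all second tags with 6 spots on both arrays had no overlap. The mean thus rests on values of opposite sign at that tag. RTT107 minus RTT101 was 2.19 on array 1 and 1.25 on array 2.

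The strains without the chaperone or the enzyme that H3K56 acetylation needs had almost the same array values as each other when the tags were averaged. Without the chaperone gene ASF1 (YJL115W) the arrays read -0.59 and -0.94, a mean of -0.76 ± 0.25. Without the acetyltransferase gene RTT109 (YLL002W) they read -0.61 and -0.99, a mean of -0.80 ± 0.27. These are 1.70-fold and 1.74-fold lower. ASF1 minus RTT109 was 0.028 on array 1 and 0.050 on array 2. The SD of either strain is no measure for this difference. It comes from a shift between the arrays that both strains share, -0.35 for ASF1 and -0.38 for RTT109. They ranked 233 and 209 from the lowest and missed the 2-fold rule.

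These means average tags that disagree. The second tag of ASF1 read -1.65 on array 1 (6 spots from -1.70 to -1.62) and -1.85 on array 2 (from -1.99 to -1.60), while its first tag read 0.48 (from 0.20 to 0.72) and -0.030 (from -0.32 to 0.29). The second tag of RTT109, with 1 spot, read -1.59 and -1.49, and its first tag 0.37 and -0.49. In both strains the second tag was 2.81-fold to 3.61-fold lower, and the first tag was above 0 on array 1 and below 0 on array 2. At the first tag, array 2 minus array 1 was -0.51 for ASF1 and -0.86 for RTT109. The median absolute gap of all strains there was 0.27. Tag by tag the strains lay further apart than their averages. On array 2, ASF1 minus RTT109 was 0.46 at the first tag and -0.36 at the second. On array 1 it was 0.11 and -0.057. The tag gaps of 1.98 for ASF1 and 1.48 for RTT109 were larger than those of 95.8% and 91.8% of the strains.

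With the 2-fold rule applied to the second tag alone, 5 of the 8 strains passed on the lower side, namely RTT101, MMS1, MMS22, ASF1 and RTT109, beside 0.565% of the strains with that tag. With the first tag alone 3 of the 8 passed, the ligase core, beside 5.07% of strains. The tag blocks differ in this respect over the whole array: 270 strains passed on the lower side at the first tag and 30 at the second, and 20 strains passed at both, which is 7.41% of the 270 and 66.7% of the 30. ASF1 and RTT109 are 2 of the 10 strains that passed at the second tag and not at the first. The other 8, named here after their values were seen, lack KIN28, YCR050C, LYP1, SOF1, YTM1, RAD50, DDC1 and HOC1. Of these KIN28, SOF1 and YTM1 are essential genes. YCR050C, LYP1, SOF1, RAD50, DDC1 and HOC1 were below 0 at the first tag on both arrays as well. RAD50 read -1.01 and -0.90 there, DDC1 -0.79 and -0.98, and SOF1 -0.58 and -0.30. Passing at the second tag alone thus need not mean tags as far apart as those of ASF1 and RTT109. At the first tag KIN28 read 1.56 and 0.079, and YTM1 0.082 and -0.47. Ranks from the lowest among second tags on array 1 and array 2 were 33 and 18 for ASF1, 37 and 39 for RTT109, 10 and 20 for RTT101, 37 and 42 for MMS1, and 26 and 33 for MMS22. Whether the first or the second tag of a given strain reports its abundance better was not tested, since the table holds no signal intensities.

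**Figure D2:**
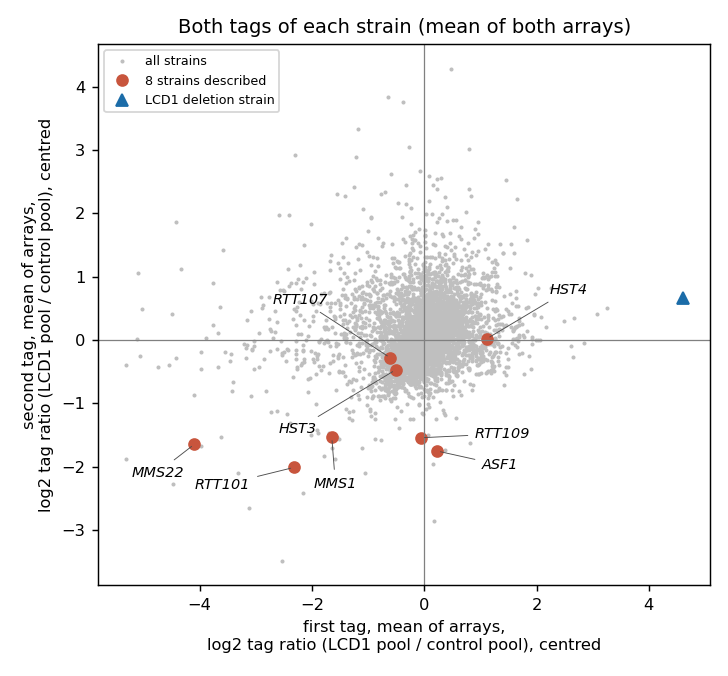
Each point is 1 strain, with the mean of both arrays at the first tag on the horizontal axis and at the second tag on the vertical axis, both as the log2 ratio of LCD1 over control pool. ASF1 and RTT109 lie side by side below the cloud of strains at a second-tag value of -1.75 and -1.54, level with MMS22 and MMS1, while their first tag is near 0.

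The sirtuin strains, which lack the enzymes that remove the mark, stood on opposite sides of 0. Without HST3 (YOR025W) the arrays read -0.55 and -0.43 and the mean was -0.49 ± 0.089, or 1.40-fold lower, at rank 486 from the lowest. Without HST4 (YDR191W) they read 0.69 and 0.44 and the mean was 0.57 ± 0.18, or 1.48-fold higher, at rank 497 from the highest. HST4 was the 1 strain of the 8 above 0 on both arrays, and the other 7 were below 0 on both. Of all strains 37.7% were above 0 on both arrays and 34% below. HST3 minus HST4 was -1.25 on array 1 and -0.86 on array 2.

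The small value of HST3 had the smallest gap between tags of the 8. Its first tag read -0.58 on array 1 (6 spots from -0.61 to -0.55) and -0.44 on array 2 (from -0.56 to -0.19), and its second tag -0.52 (from -0.57 to -0.46) and -0.42 (from -0.55 to -0.32). All 24 spot values of this strain were below 0, and the tags lay 0.039 apart, a gap larger than that of 7.80% of the strains. Together with the ligase core, HST3 made up the 4 of 8 strains with all 4 tag values below 0, as 16.4% of strains had.

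The value of HST4 came from its first tag. That tag read 1.49 on array 1 (6 spots from 1.39 to 1.60) and 0.74 on array 2 (from 0.40 to 1.10), while the second tag read -0.097 (from -0.22 to -0.020) and 0.14 (from -0.078 to 0.43). The spots of the first tag did not overlap between the arrays, as in 23.1% of all first tags with 6 spots on both arrays. At the second tag the mean of the arrays was 0.019, so that tag gives no difference between the pools beyond its spread of 0.16 (SD, n = 2).

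**Figure D3:**
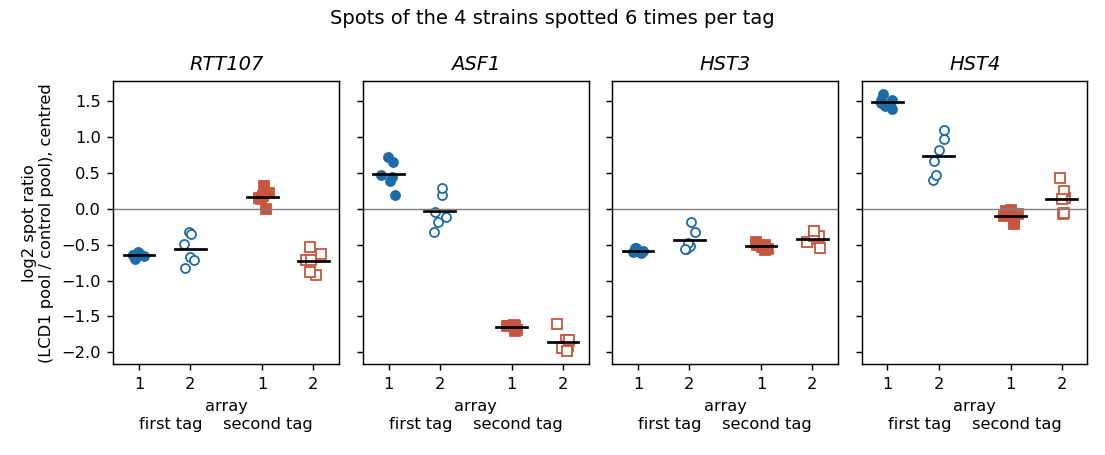
Each symbol is 1 spot, as the log2 ratio of LCD1 over control pool, for the 4 strains spotted 6 times per tag; lines are means of 6 spots. The spots separate between the arrays at the second tag of RTT107 and the first tag of HST4, and they stay together for HST3. Over all tags with 6 spots on both arrays, 25.4% separate in this way.

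The repeated spots also show how the arrays compare in precision. Over the 793 strains with 6 spots or more per tag, the median SD of the spots at the first tag was 0.075 on array 1 and 0.18 on array 2, and at the second tag 0.091 and 0.12. The 4 strains here had spot SDs from 0.026 for the first tag of HST3 on array 1 to 0.27 for the first tag of HST4 on array 2. For 2 of their 8 tags the spots did not overlap between the arrays, and over all tags with 6 spots on both arrays the share was 25.4%. The other 4 strains, among them the whole ligase core, have 1 spot per tag, so that no spread of spots can be given for the lowest values.

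The arrays gave the same order of the strain means except within close neighbours. From the lowest, array 1 had MMS22 (-2.96), RTT101 (-2.43), MMS1 (-1.64), RTT109 (-0.61), ASF1 (-0.59), HST3 (-0.55), RTT107 (-0.24) and HST4 (0.69). Array 2 had MMS22 (-2.78), RTT101 (-1.90), MMS1 (-1.54), RTT109 (-0.99), ASF1 (-0.94), RTT107 (-0.65), HST3 (-0.43) and HST4 (0.44). HST3 and RTT107 swapped order between the arrays, and their means over the arrays, -0.49 and -0.44, differed by less than either SD. The means of RTT109 and ASF1 lay 0.039 apart, and their SDs hold a shift between the arrays that both strains share. The gap from MMS1 to RTT109 was larger than the SD of either on both arrays. By role, the 4 ligase strains ran from -2.87 to -0.44, the 2 strains that cannot write the mark stood at -0.80 and -0.76, and the 2 that lack an eraser at -0.49 and 0.57.

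**Figure D4:**
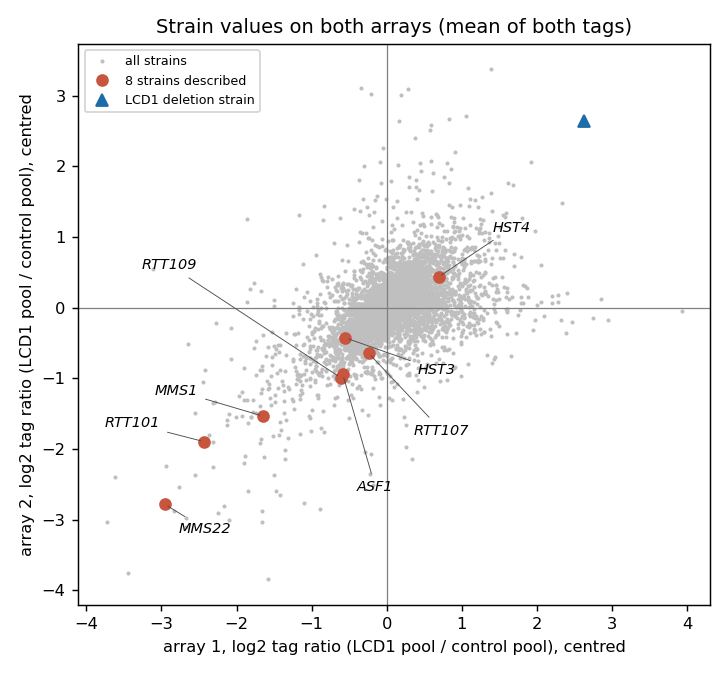
Each point is 1 strain, with its log2 ratio of LCD1 over control pool on array 1 on the horizontal axis and on array 2 on the vertical axis (mean of both tags). MMS22, RTT101 and MMS1 lie at the low end on both arrays, ASF1 and RTT109 nearly coincide, and HST4 lies above 0 on both.

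Strains that lack other genes around the ligase had a median close to that of all strains. The list of ligase partners and cullin modification genes had 15 measured members with a median of 0.11, beside 0.036 for all strains, and the 2-fold rule took 1 on the lower and 0 on the higher side, beside 1.82% and 0.695% of all strains. That 1 lacked CTF4, the fork scaffold that recruits Mms22, at -1.20 ± 0.051. CTF4 read -1.005 on array 1 and -1.55 on array 2 at its first tag, and -1.32 and -0.92 at its second. All 4 of its values were below 0, and the lower tag was the second on array 1 and the first on array 2. The highest of the list was DPB11 (0.51 ± 0.49), an essential scaffold of replication and checkpoint. The 6 genes of the Rub1 pathway, which modifies cullins, had means from -0.27 to 0.42. SLX4, named here after its values were seen, stood at -0.56 ± 0.0062, with each tag value below 0. Of the 15 means, 6 were below 0 and 9 above. CDC53, HRT1, CDC34 and DPB11 of this list are essential genes.

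Strains without other genes that handle new histones had a median close to that of all strains, which was 0.036. Of 15 listed genes of H3K56 and replication-coupled chromatin assembly, 14 were measured, with a median of -0.030 and 7 on each side of 0. On both sides the 2-fold rule took 0 of them, beside 1.82% of all strains on the lower and 0.695% on the higher side. Nothing is read from a count so near those shares. The measured means ran from POB3 (-0.48 ± 0.038) to RLF2 (0.37 ± 0.86). POB3 encodes an essential subunit of the FACT chaperone. It read -1.89 on array 1 and -0.41 on array 2 at its first tag, and 0.89 and -0.49 at its second. SPT16, the other FACT gene, is named here after its values were seen. Its mean of -0.085 averages first-tag values of -1.78 and -2.24 with second-tag values of 0.77 and 2.91. RLF2 encodes the large subunit of the CAF-1 chaperone, and its arrays read -0.24 and 0.98. The 4 genes of the HIR complex, another histone chaperone, were all slightly below 0 on both arrays, as were 34% of all strains. Their means ran from -0.32 to -0.11. HIR3 and HPC2 were below 0 at each tag value. HIR1 read 0.32 at its second tag on array 1, and HIR2 read 0.11 at its first tag on array 2. The 3 other sirtuin genes ran from HST2 (-0.0065 ± 0.013) to HST1 (0.20 ± 0.033), so none was as low as HST3 or as high as HST4.

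Among the 8 core histone genes the median was 0.018, and 1 strain passed the 2-fold rule, on the lower side. It lacked HHT2, 1 of the pair of genes for histone H3, at -1.63 ± 0.22, or 3.10-fold lower, at rank 48. Here the first tag carried all of the value, with -3.58 and -2.82 against 0.016 and -0.13 at the second tag. The other histone H3 gene, HHT1, named here for comparison after its values were seen, gave 0.36 ± 0.33. The highest of the list was HTB2 (0.36 ± 0.38), a gene for histone H2B. Together 2 of the 40 measured list genes, CTF4 and HHT2, passed the rule on the lower side and 0 on the higher side, beside 1.82% and 0.695% of all strains.

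The lists hold 6 essential genes (CDC53, HRT1, CDC34, DPB11, SPT16 and POB3), whose deletion haploids should grow in neither pool. Their tags give the size of readings that are no measure of growth: first tags ran from -2.24 to 0.97 and second tags from -0.49 to 2.91, with strain means from -0.87 to 0.51. The second tags of RTT101, MMS1, MMS22, ASF1 and RTT109 lay below that range on both arrays. The first tags of MMS22 did too, and so did the first tag of RTT101 on array 1. This range covers those 6 genes only and is no floor for essential genes. Second tags of the essential genes KIN28, SOF1 and YTM1 also lay below it, at -1.98, -1.59 and -1.45 on array 1. On array 2 they read -1.27, -1.20 and -1.03. The strains without the essential genes RRP12 and MEC1, which are named below for their likeness to MMS22, read about as low as MMS22 at both tags, so a low ratio by itself does not show how well a strain grew. At the first tag RRP12 (-3.66 and -4.31) and MEC1 (-4.82 and -4.15) also read lower than RTT101 (-2.61 and -2.02). Signal over background of the 8 strains is unknown, and its part in their values was not tested.

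**Figure D5:**
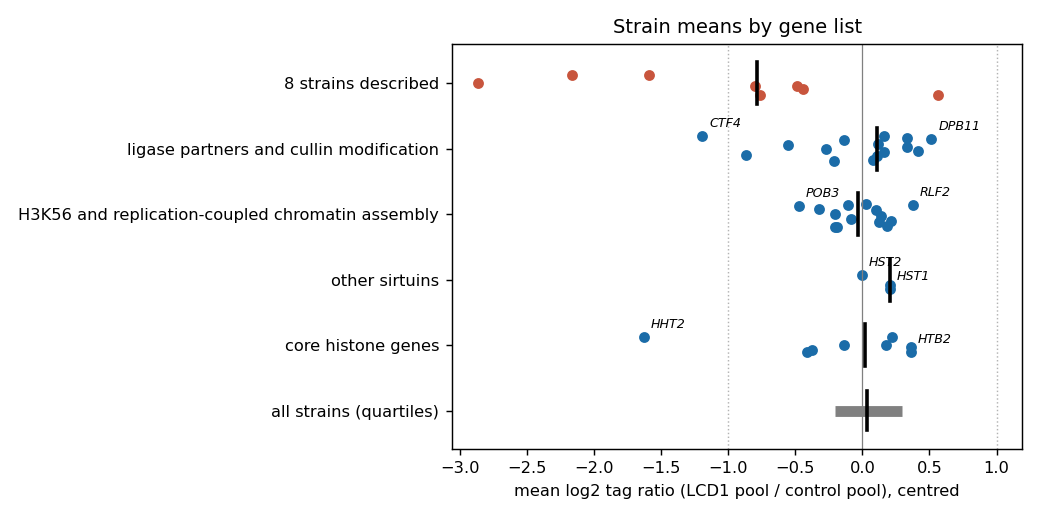
Each point is the mean log2 ratio of LCD1 over control pool of 1 strain (both tags, both arrays), by gene list, with list medians as black lines and the quartiles of all strains as a grey bar. CTF4 and HHT2 stand apart from their lists at -1.20 and -1.63, and the medians of the 4 lists lie between -0.030 and 0.20.

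Deletions next to RTT101, MMS1 and MMS22 on the chromosome had means above 0, as had 2880 of all 5325 strains. Nothing is read from their side of 0. Of the 16 immediate neighbours of the 8 genes in the yeast gene table, 14 had a strain on the arrays. On either side 0 of these 14 passed the 2-fold rule. Of all strains 1.82% passed on the lower and 0.695% on the higher side, so nothing is read from that count. RHO1, SFH1, SFI1 and RVB1 among the 14 are essential genes, so their values are no measure of growth. Beside RTT101, AIM22 stood at 0.74 ± 0.020. Beside MMS1, TIF3 stood at 0.16 ± 0.090 and RHO1 at 0.042 ± 0.31, with 0.26 on array 1 and -0.17 on array 2 for RHO1. Beside MMS22, BUD6 stood at 0.42 ± 0.54 and SFH1 at 0.27 ± 0.17. The lowest neighbour was SFI1, beside RTT109, at -1.02 ± 0.89, with -1.65 on array 1 and -0.39 on array 2. The other neighbour of RTT109, DNM1, stood at -0.51 ± 0.27. SFI1 and DNM1 were below 0 on both arrays, as were 34% of all strains. At the second tag, where RTT109 was low, SFI1 read -1.24 on array 1 and 0.51 on array 2. DNM1 read -0.89 and 0.032 there. The neighbours of the other genes were NCA3 (0.23 ± 0.040) for ASF1, SPO16 (-0.14 ± 0.20) and LAM1 (-0.33 ± 0.060) for RTT107, AHC1 (-0.31 ± 0.025) and BUB3 (0.41 ± 0.42) for HST3, and RVB1 (0.15 ± 0.63) and NUP42 (-0.23 ± 0.067) for HST4.

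The strains most like each of the 8 were sought by the Euclidean distance over the 4 tag values, among the other 5308 strains with all 4. For ASF1 the closest strain of all was RTT109, at a distance of 0.60, followed by YTM1 (1.03) and RPT4 (1.04). For RTT109, ASF1 came in place 2 after YTM1 (0.56) and before SGF11 (0.74). YTM1 and RPT4 are essential genes.

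Closest to RTT101 were TOF1 (0.79), GLE2 (0.80) and RAD27 (1.01), and the nearest of the other 7 strains, MMS1, came in place 8 at 1.24. TOF1, of the fork protection complex, read -2.21 and -2.10 at the first tag and -2.43 and -2.42 at the second. Closest to MMS1 were SGF29 (0.29), RAD27 (0.39) and CSM3 (0.42), the partner of Tof1. MMS22, with its very low first tag, was closest to RRP12 (0.60), MEC1 (1.17) and LEU3 (1.39), of which RRP12 and MEC1 are essential. MEC1 read -4.82 and -4.15 at the first tag and -2.63 and -1.92 at the second, and RRP12 -3.66 and -4.31 and then -1.68 and -1.65. RTT107 was closest to MCM22 (0.18), PHO86 (0.27) and ABD1 (0.30), HST3 to CPR7 (0.12), SWI4 (0.13) and CUE4 (0.13), and HST4 to YER034W (0.16), YMD8 (0.22) and URH1 (0.22). ABD1 is essential as well. Near 0 many strains lie close together, so short distances there are common.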

How the data were processed

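Per the labels, images of the tag arrays were taken with a GenePix scanner and analysed with GenePix software. The authors deposited 1 log2 dye ratio per feature. The scale was inferred from the values: turned back to linear ratios, all are whole hundredths (within 0.001). The median deposited log2 ratio was -0.136 on each array. The numerator dye and any normalization were not given in the sources used here. With no intensities, no filter on dim features could be set. Of 22575 features, 20000 had a value on array 1 and 20032 on array 2. The platform annotation named 18794 of them for 5325 genes, matched by gene number to the table of assembly R64 (4 genes had no match and kept their names). Signs were turned. For each array, spots of a gene were averaged per tag block (the first ends at feature 10971), the block median over strains was subtracted, and the tag values were averaged (Python 3.11.15, pandas 2.3.3). The steps were checked for errors on simulated data with large planted differences shared by both tags. Tags that disagree were not simulated. No source states whether spots of a gene carry the same probe. Precision is limited by the number of arrays. The labels name no genome build, so positions are not given. Members and lists were chosen with earlier results of these data known. Named genes were the 8 members, LCD1, list genes past 2-fold on both arrays, the lowest and highest of each list, the 3 closest strains per member and chromosomal neighbours. Alternatives covered centring, scale, spots, tags, fold, direction and leaving out an array.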

Additional observations from a re-analysis of the deposited data

How the results depend on the processing

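RTT101, MMS1 and MMS22 were at least 2-fold lower under each alternative of centring, scale, spots, tag and array. Values of the 8 strains moved with the tag: MMS22 was -4.09 at the first tag and -1.64 at the second, ASF1 0.22 and -1.75, RTT109 -0.061 and -1.54, HST4 1.11 and 0.019. The count of 3 lower members became 5 with the second tag alone (ASF1 and RTT109 added) or at 1.5-fold and 1 at 4-fold (MMS22). With the ratio read the other way it became 0 lower and 3 higher, at 2.16 for RTT101, 1.59 for MMS1 and 2.87 for MMS22. The 2 lower list genes became 5 with the first tag alone and 0 with the second tag alone, at 4-fold or with the ratio turned. Over all strains, 97 lower and 37 higher became 270 and 98 with the first tag alone, 30 and 80 with the second, 231 and 206 at 1.5-fold, 14 and 1 at 4-fold and 37 and 97 with the ratio turned. Without centring 60 were higher. Leaving out an array gave 150 to 185 lower and 137 to 253 higher, because a single array then has to pass. Other causes were not tested. The alternative with the lowest-numbered spot alone was chosen after seeing the data, and it left the count of members at 3. No paired analysis was possible because there is 1 group of 2 arrays and no second group to pair it with; each log ratio already sets both pools against each other within an array.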
